A study of Mus musculus with 37 samples.

Results

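The 10 genes described here encode the chondroitin sulfate proteoglycans Bcan, Ncan, Vcan, Acan and Cspg5, the tenascins Tnc and Tnr, the receptor Ptprz1 and its ligands Ptn and Mdk. They were chosen by symbol and make up 10 of the 21975 genes in the count tables, each matched to a single protein-coding gene. The libraries are of astrocytes isolated with ACSA-2 beads from the hippocampus of adult male wild-type mice, 4 months after a unilateral controlled cortical impact over the right parietal cortex or a sham operation. Injured mice were followed by EEG and video and divided into PTE+ mice, which had developed post-traumatic epilepsy, and PTE- mice, which had not. Sham mice had the craniectomy and the electrodes without the impact. The hippocampus on the side of the impact (ipsilateral) and the other one (contralateral) were separate libraries. There were 5 PTE+, 10 PTE- and 5 sham contralateral libraries and 4, 8 and 5 ipsilateral ones, and 17 of the 20 mice gave both. The labels give the strain as CD31 and the methods of the study as CD1. The impact used for the astrocyte isolation was the deeper of those in the study, and the cells were selected by 1 surface antigen.

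Brevican, neurocan, versican and aggrecan are the lecticans, which bind hyaluronan at one end and tenascins at the other and carry chondroitin sulfate chains in between. With tenascin-R and link proteins they build the perineuronal nets around neurons, and in the injured brain glial cells are a known source of several of them. Ptprz1 is a receptor tyrosine phosphatase that itself carries chondroitin sulfate and is also made as the secreted proteoglycan phosphacan. Pleiotrophin (Ptn) and midkine (Mdk) are heparin-binding growth factors that bind its sugar chains and inactivate the phosphatase.

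The libraries held 25371887 to 59846479 estimated counts. The number of genes with more than 3 counts ranged from 7666 to 14847, and was lowest in the ipsilateral library of PTE- mouse a8_11. All 11 astrocyte markers, among them Aqp4, Slc1a3 and Aldoc, had more than 3 counts in all 37 libraries, and their summed CPM (library-scaled counts after TMM normalization) was 11694 to 37264. Of the other cell types, the summed CPM of 8 markers of oligodendrocyte precursors was 369 to 1870. That of 7 markers of microglia was 27.04 to 1295, and that of 10 neuronal markers 101 to 1705. Higher sums were reached by markers of mature oligodendrocytes (up to 2835, contralateral PTE-), ependymal cells (2396, ipsilateral PTE-) and endothelial cells (1908, contralateral PTE+). Those of fibroblasts and mural cells reached 1110 (ipsilateral PTE-), and those of neuroblasts 64.9 (contralateral PTE-). Each mouse's name starts with a8 or a9, a split whose meaning the labels do not give and which is present in every group.

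The levels of the 10 genes ran from Bcan, which was as abundant as common astrocyte markers, to Acan, which was not seen in most libraries. On the deposited TPM scale (which corrects for transcript length and so allows genes to be compared), the median over all 37 libraries was 1703 for Bcan, 1547 for Cspg5, 1218 for Ptn, 303 for Mdk, 166 for Ptprz1, 25.3 for Ncan, 5.13 for Tnc, 2.14 for Vcan, 1.75 for Tnr and 0 for Acan. Neighbours in this order were not always in the same order within a library. Bcan was above Cspg5 in 26 of 37 libraries, Cspg5 above Ptn in 31, Tnc above Vcan in 19 and Vcan above Tnr in 22, so these neighbours were not separated in every library. Ptn was above Mdk, and Ptprz1 above Ncan, in 37 of 37, Mdk was above Ptprz1 in 36, and Ncan was above Tnc in 35. The astrocyte marker Aqp4 had a median TPM of 682 and Slc1a3 one of 2160, so Bcan, Cspg5 and Ptn lay between these markers.

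**Figure D1:**
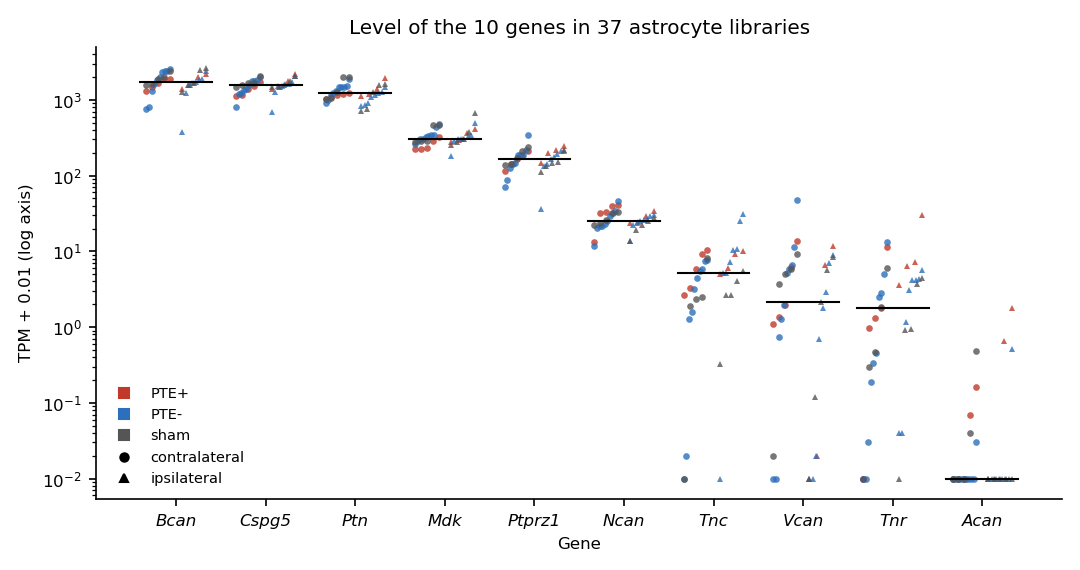
TPM (plus 0.01, log axis) of the 10 genes in each of the 37 libraries, as circles for contralateral and triangles for ipsilateral libraries and coloured by group; black lines are medians. Bcan, Cspg5 and Ptn sit together near the top, Tnc, Vcan and Tnr scatter down to libraries listed at 0, and Acan is at 0 in 29 of 37 libraries.

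The genes fell into those measured in every library and those that dropped out of some. Bcan, Ncan, Cspg5, Ptprz1, Ptn and Mdk had more than 3 counts in 37 of 37 libraries. Tnc passed this limit in 33, Tnr in 32, Vcan in 28 and Acan in 8. For these genes a value at 0 stands for at most 3 counts in the library, a limit that covers counting error only. In bulk RNA of isolated cells, fewer cells of a type and less RNA per cell cannot be told apart.

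Among the lecticans, Bcan (chromosome 3, 87987531 to 88000230, minus strand, in GRCm38, which is mm10) had a CPM of 2762, 2921, 3074, 3109 and 3137 in the contralateral PTE+ libraries. In the contralateral PTE- libraries it ranged from 1729 through a median of 3433 to 4642, and in the 5 contralateral sham libraries from 2840 to 3794. Its ipsilateral values were 2525, 2795, 3057 and 3562 in PTE+, 816 to 4076 with a median of 3125 in PTE-, and 2886 to 4793 in sham. The contralateral PTE+ libraries were the tightest of the 6 groups, with a mean of 3001 ± 157 (SD, n = 5) against 3364 ± 887 (SD, n = 10) in PTE-, and lay inside the PTE- range. The lowest value, 816, was that of mouse a8_11, whose contralateral library had 2594.

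Ncan (chromosome 8, 70093085 to 70120873, minus strand), the other lectican present in every library, was less abundant. Its mean CPM was 148 ± 40.5 (SD, n = 5) in contralateral PTE+, 135 ± 35.7 (n = 10) in PTE- and 131 ± 14.2 (n = 5) in sham. The ipsilateral means were 124 ± 25.6 (n = 4), 120 ± 15.5 (n = 8) and 113 ± 18.8 (n = 5). The ipsilateral library was the lower of the pair in 14 of the 17 mice, including 4 of 4 PTE+ and 5 of 5 sham mice. The within-mouse difference of log2(CPM + 1), ipsilateral minus contralateral, averaged -0.44 ± 0.26 (SD) in PTE+, -0.15 ± 0.38 in PTE- and -0.22 ± 0.14 in sham mice. Singled out here after its values were seen, Ncan gave an exact sign-flip permutation p of 0.0625 in the 5 sham mice and 0.125 in the 4 PTE+ mice, in each case the smallest that this number of mice allows, and the edgeR p were 0.378 and 0.124. In the 8 PTE- mice, of which 3 were higher ipsilaterally, the exact sign-flip permutation p was 0.297 and the edgeR p 0.327.

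Vcan (chromosome 13, 89655312 to 89742509, minus strand) and Acan (chromosome 7, 79053483 to 79115099, plus strand) were sparse. Vcan had a median CPM of 14.02, 13.99 and 13.2 in contralateral PTE+, PTE- and sham libraries and 10.4, 5.86 and 6.01 in the ipsilateral ones. It ranged within single groups from 0 to 46.2 (contralateral PTE-) and from 0 to 44.5 (ipsilateral PTE+), so that the spread in a group was larger than any difference between group medians. Versican is also made by oligodendrocyte precursors, and its deviations from the group means were set beside the summed markers of those cells in the relations described further on.

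Acan counts, as deposited, were 25 and 11 in contralateral PTE+ mice a9_17 and a9_19, 7 in contralateral PTE- mouse a8_11, and 40 and 5 in contralateral sham mice a8_15 and a9_11. In the ipsilateral libraries they were 109 and 214 in PTE+ mice a9_17 and a9_18 and 60 in PTE- mouse a9_12, and 0 in all 5 sham libraries. The other 29 libraries were listed at 0. Set against the limit of 3 counts per library averaged over the ipsilateral sham group (0.0628 CPM), the mean was at least 24.9-fold higher in ipsilateral PTE+, through 2 of 4 libraries, and at least 2.37-fold higher in ipsilateral PTE-, through 1 of 8. Without mouse a9_18 the first bound was 10.2-fold, and without mouse a9_12 the PTE- group was at 0 as well. The exact permutation p for these differences were 0.167 and 1 (two-sided). Aggrecan is best known as a product of neurons that bear perineuronal nets, and the summed neuronal markers ran from 272 to 906 CPM in ipsilateral PTE+, 157 to 1045 in PTE- and 101 to 716 in sham libraries; their part in the Acan values was not tested.

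Cspg5 (chromosome 9, 110243783 to 110262576, plus strand), also called neuroglycan C, is a membrane-bound proteoglycan with an EGF-like domain. Its CPM was 1246, 1423, 1611, 2002 and 2042 in contralateral PTE+ libraries, 1176 to 2552 with a median of 1957 in PTE-, and 1814 to 2136 in sham. Ipsilaterally it was 1658, 1714, 1816 and 2310 in PTE+, 1085 to 2327 with a median of 1811 in PTE-, and 1663 to 2365 in sham. Of the 5 contralateral PTE+ libraries, 3 lay below all 5 contralateral sham libraries and the other two among them, with a mean of 1665 ± 351 (SD, n = 5) against 2012 ± 146 (n = 5).

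The tenascins varied widely from library to library. Tnc (chromosome 4, 63959785 to 64047015, minus strand), the tenascin of reactive and developing tissue, had CPM values of 15.6, 15.7, 28.2, 37.8 and 45.4 in contralateral PTE+ libraries. In contralateral PTE- it ran from 0 through a median of 18.7 to 36.2, and in sham from 0 through 9.59 to 36.0. Ipsilateral values were 21.0, 28.1, 41.4 and 42.1 in PTE+, 0 to 181 with a median of 40.7 in PTE-, and 1.54, 11.2, 12.3, 26.3 and 30.8 in sham. The 2 highest of the 37 libraries, 181 in mouse a8_11 and 145 in mouse a9_13, were both ipsilateral PTE-, and the same group held a library at 0, mouse a8_14. The ipsilateral PTE- mean was 63.3 ± 64.6 (SD, n = 8) against 16.4 ± 11.9 (n = 5) in sham.

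Tnr (chromosome 1, 159523769 to 159931729, plus strand), the tenascin of perineuronal nets and of oligodendrocyte lineage cells, had a mean CPM of 9.19 ± 5.79 (SD, n = 5), 8.13 ± 11.2 (n = 10) and 9.16 ± 11.2 (n = 5) in contralateral PTE+, PTE- and sham libraries. In the ipsilateral PTE+ libraries it was 10.6, 16.8, 22.3 and 33.8. The ipsilateral PTE- libraries ran from 0.214 through a median of 7.72 to 33.8 and the sham ones from 0.0363 to 19.2. All 4 ipsilateral PTE+ libraries were thus above 10 CPM, but 4 of the 8 PTE- and 2 of the 5 sham libraries were as well. Both tenascin genes overlap exons of a transcript on the opposite strand (8030451A03Rik for Tnc, Gm38039 for Tnr). Neither transcript is in the count tables, and without strand its reads cannot be told apart from those of the tenascin.

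Ptprz1 (chromosome 6, 22875502 to 23052916, plus strand), the receptor, was measured in every library at similar levels. Its mean CPM was 665 ± 54.4 (SD, n = 5) in contralateral PTE+, 730 ± 230 (n = 10) in PTE- and 744 ± 141 (n = 5) in sham, and 763 ± 182 (n = 4), 639 ± 175 (n = 8) and 682 ± 97.7 (n = 5) ipsilaterally. Its lowest library, 246, was again the ipsilateral one of PTE- mouse a8_11, and its highest, 1275, the contralateral one of PTE- mouse a9_16. The log2 fold changes of Ptprz1 lay between -0.16 and 0.26 in the 6 comparisons within a hemisphere.

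**Figure D2:**
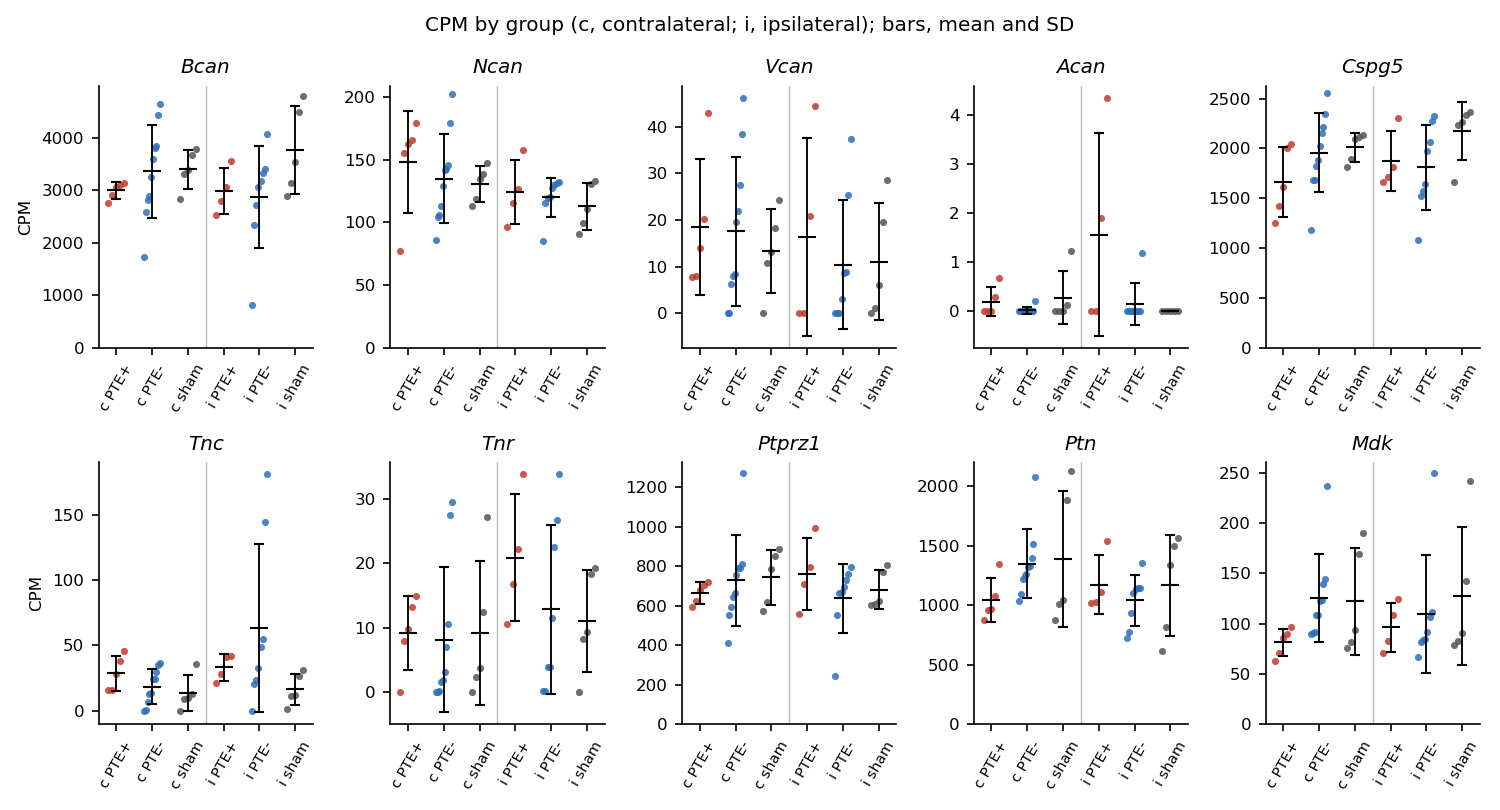
CPM of each gene in every library, by group (c, contralateral; i, ipsilateral), with the mean and SD of the group. The 6 genes measured in all libraries overlap between groups, whereas for Tnc the 2 libraries of ipsilateral PTE- at 145 and 181, and for Acan the libraries of ipsilateral PTE+, set the group means.

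Of the 10 genes, the 2 ligands were those with a p under 0.05 by either test in a comparison of PTE+ with PTE- mice. Both were lower in contralateral PTE+ than in contralateral PTE- astrocytes, and neither was lower in PTE+ to that extent on the ipsilateral side. In both, the mean difference between the hemispheres had opposite signs in PTE+ and PTE- mice, though not in every mouse. None of this passed adjustment over all genes.

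Ptn (chromosome 6, 36714929 to 36810220, minus strand) is named by the study among the genes altered in PTE+ astrocytes. The study called genes by a DESeq2 p-value under 0.05 together with cutoffs on fold change and TPM, which differs from the edgeR fit used here. In contralateral PTE+ libraries its CPM was 874, 962, 967, 1077 and 1345. In contralateral PTE- libraries it ran from 1034 through a median of 1295 to 2080, and in sham it was 874, 1012, 1043, 1882 and 2125. Of the 5 PTE+ libraries, 3 lay below all 10 PTE- libraries, and the sham libraries fell on either side of them. The PTE+ mean was 1045 ± 182 (SD, n = 5), against 1351 ± 291 (n = 10) in PTE- and 1387 ± 573 (n = 5) in sham. Against PTE- the edgeR log2 fold change was -0.38 ± 0.20 (SE; p = 0.0787, adjusted p = 0.999811, 95% interval -0.77 to 0.02), and the exact permutation p was 0.0256 (two-sided). The log2 difference was -0.27 among the a8 mice and -0.42 among the a9 mice (exact permutation p = 0.2 and 0.0833). On the log2(TPM + 1) scale it was -0.22, with an exact permutation p of 0.161. DESeq2 on the 3 contralateral groups gave a log2 fold change of -0.37 (DESeq2 p = 0.0738). It was -0.38 by edgeR in the 2 compared groups alone (edgeR p = 0.0374) and -0.18 with voom (limma p = 0.235). Contralateral PTE+ libraries had 13080 to 14392 genes with more than 3 counts and contralateral PTE- ones 10294 to 14727, and with that number in the model the log2 fold change was -0.23 (edgeR p = 0.265). The summed astrocyte markers were 20833 to 25900 CPM in contralateral PTE+ and 21931 to 36180 in contralateral PTE-; the part of this in the result was not tested.

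In the ipsilateral hippocampus Ptn was 1016, 1024, 1113 and 1544 in PTE+ libraries, 728 to 1358 with a median of 1120 in PTE-, and 612, 818, 1341, 1500 and 1565 in sham. The groups overlapped throughout, and the sham libraries held both the lowest and the highest value. The mean was 1174 ± 250 (SD, n = 4) in PTE+ and 1040 ± 212 (n = 8) in PTE-, a log2 fold change of 0.17 ± 0.24 (SE; edgeR p = 0.483; adjusted 0.999994), and the exact permutation p was 0.356. In the a8 mice, with 1 PTE+ library, the log2 difference was -0.25, and in the a9 mice it was 0.39 (exact permutation p = 0.5 and 0.161).

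Mdk (chromosome 2, 91929805 to 91932297, minus strand) showed the larger contralateral difference of the 2 ligands. Its CPM was 62.9, 71.2, 85.9, 89.4 and 96.6 in contralateral PTE+ libraries. In contralateral PTE- it ran from 89.7 through a median of 115 to 237, and in sham it was 76.2, 81.3, 93.1, 169 and 190. Of the 5 PTE+ libraries, 4 lay below all 10 PTE- libraries. The means were 81.2 ± 13.8 (SD, n = 5), 125 ± 43.9 (n = 10) and 122 ± 53.5 (n = 5). The log2 fold change of PTE+ against PTE- was -0.63 ± 0.28 (SE; edgeR p = 0.0356, adjusted p = 0.999811, 95% interval -1.18 to -0.08), and the exact permutation p was 0.0123. It was -0.56 among a8 and -0.59 among a9 mice (exact permutation p = 0.2 and 0.0476), -0.39 on the log2(TPM + 1) scale (exact permutation p = 0.0147), and -0.57 with the count of detected genes in the model (edgeR p = 0.0632). Mouse a8_11 had the highest Mdk in each hemisphere (237 contralaterally and 250.2 ipsilaterally), and without its contralateral library the log2 fold change was -0.47 (edgeR p = 0.0800). Leaving out contralateral PTE+ mouse a8_17, a9_17 or a9_19 gave p values of 0.0521, 0.0887 and 0.0795. Against sham, the contralateral PTE+ mean was lower by a log2 fold change of -0.59 ± 0.32 (SE) for Mdk and -0.41 ± 0.23 for Ptn. The edgeR p were 0.0781 and 0.0905, and the exact permutation p 0.175 and 0.294.

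Ipsilateral Mdk was 70.3, 82.4, 108.5 and 124 in PTE+, 66.9 to 250.2 with a median of 88.3 in PTE-, and 78.8, 82.4, 90.7, 143 and 242 in sham. The groups overlapped, and PTE+ against PTE- gave a log2 fold change of -0.19 (edgeR p = 0.655). Markers of ependymal cells summed to 213 to 2396 CPM (median 306) in ipsilateral PTE-, 128 to 446 in PTE+ and 112 to 733 in sham libraries. Contralaterally they summed to 98.2 to 547 CPM (median 452) in PTE+ and 144 to 980 (median 300) in PTE- libraries. The part of these cells in the Mdk values was not tested.

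**Figure D3:**
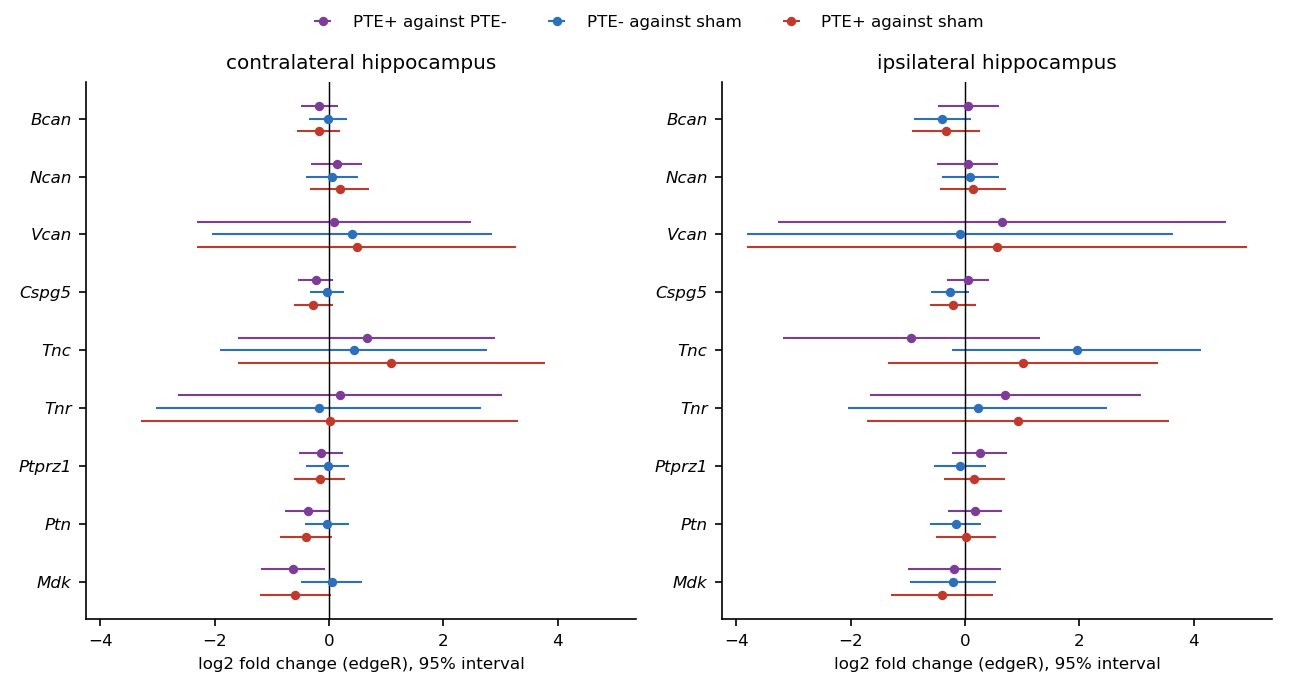
edgeR log2 fold changes of the 9 genes tested within a hemisphere, with 95% intervals (1.96 SE), for the 3 comparisons of each hemisphere. The interval of Mdk in contralateral PTE+ against PTE- (-1.18 to -0.08) is the one that leaves out 0, and those of Vcan, Tnc and Tnr are several times wider than the others.

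Counted over each comparison within a hemisphere, 9 of the 10 genes passed the filter on low counts and Acan did not. In contralateral PTE+ against PTE-, 1 of 9 (Mdk) had an unadjusted edgeR p under 0.05, against 2.21% of all 14642 genes tested, and 0 had an adjusted p under 0.05, against 0.00683%. By the exact permutation test 2 of 10 (Ptn and Mdk) were under 0.05, against 4.19% of 15812 genes. The median log2 fold change of the 9 was -0.14, and of all genes -0.05. In contralateral PTE- against sham (1.54% of all genes under 0.05) and PTE+ against sham (1.23%) the count was 0 of 9, with log2 fold changes from -0.18 to 0.43 and from -0.59 to 1.09. In the ipsilateral hippocampus it was 0 of 9 in PTE+ against PTE- (1.75% of 14903 genes), in PTE- against sham (1.58%) and in PTE+ against sham (1.66%), with log2 fold changes from -0.94 to 0.70, -0.40 to 1.95 and -0.40 to 1.01. The extremes of the last 3 ranges were Tnc and Tnr, Bcan and Tnc, and Mdk and Tnc. After adjustment 0 genes in the whole table passed in these 5 comparisons (0%). For Bcan, Ncan, Cspg5 and Ptprz1 the 95% intervals in these 6 comparisons lay within -0.93 and 0.74 on the log2 scale, so larger differences between the groups are outside them, while for Vcan, Tnc and Tnr differences of several-fold in either direction were not detectable at this spread.

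The 17 mice with both libraries allowed each hemisphere to be set against the other in the same animal, with all 10 genes passing the filter. In PTE- mice Ptn was lower on the ipsilateral side in 7 of 8 mice and Mdk in 7 of 8. The log2 differences of Ptn, ipsilateral minus contralateral, ran from -0.91 through a median of -0.22 to 0.07, and those of Mdk from -0.76 through -0.18 to 0.08. The exact sign-flip permutation p was 0.0156 for each of these genes, with 0.00781 as the smallest that 8 mice allow. The edgeR p were 0.0593 for Ptn (log2 fold change -0.38) and 0.418 for Mdk (-0.24). With the mouse as a replicate block the Ptn value was -0.38, with a p of 0.0365. With RLE size factors the log2 fold changes were -0.28 and -0.10 (edgeR p = 0.164 and 0.759), and on the log2(TPM + 1) scale the exact permutation p were 0.141 and 0.164. These were 2 of 10 genes under 0.05 by the exact test, against 4.1% of all genes, and 0 of 10 by edgeR, against 4.56%. After adjustment 0% of genes passed in any comparison of the hemispheres.

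In PTE+ mice Ptn was higher on the ipsilateral side in 4 of 4 mice, by log2 differences of 0.08, 0.20, 0.23 and 0.52, and Mdk in 3 of 4, by -0.23, 0.16, 0.47 and 0.60. Cspg5 was also higher there in 4 of 4 mice, by 0.17 to 0.46. With 4 mice the exact test cannot go below 0.125, which Ptn, Cspg5 and, in the other direction, Ncan reached. The share of all genes that reached it was not computed. By edgeR 0 of 10 genes had a p under 0.05 (2.93% of all genes). In sham mice the Ptn differences were -1.38, -0.51, -0.27, 0.41 and 0.52, and those of Mdk -1.06, 0.02, 0.05, 0.51 and 0.61, so the sham mice covered the ranges of both injured groups.

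**Figure D4:**
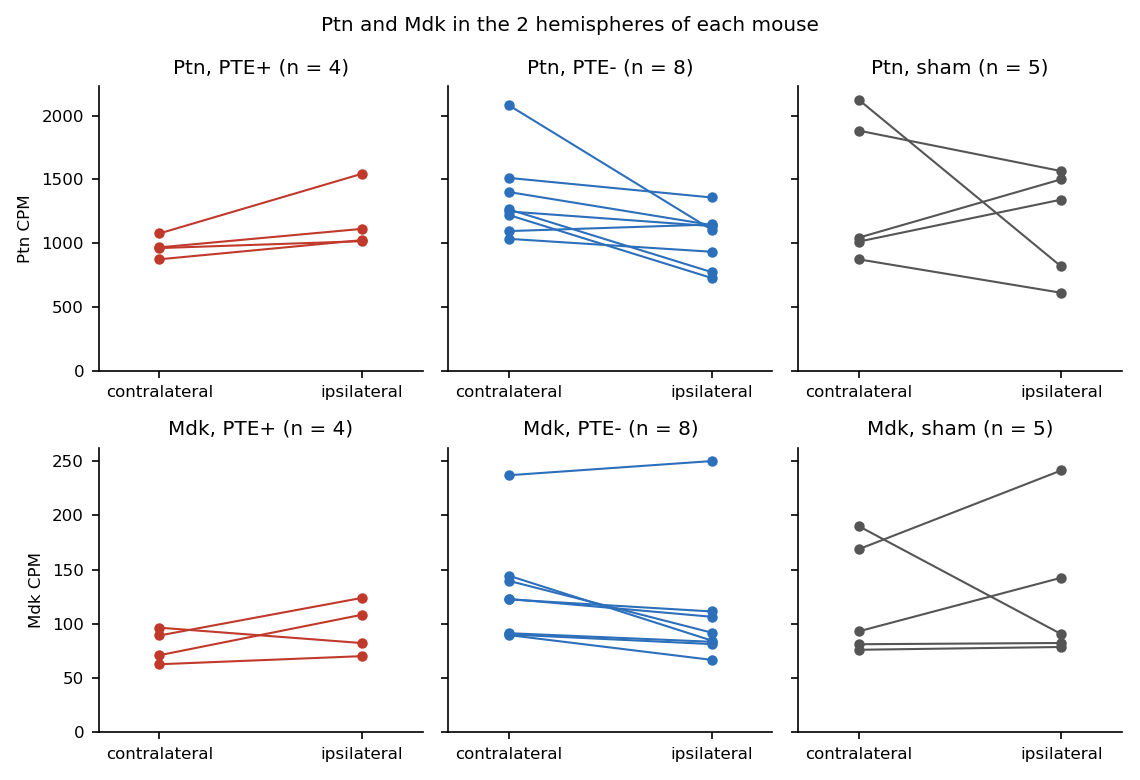
CPM of Ptn and Mdk in the contralateral and ipsilateral library of each of the 17 mice, joined by a line. The lines of Ptn go up in 4 of 4 PTE+ mice and down in 7 of 8 PTE- mice, and cross in the sham mice.

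The difference between the hemispheres was itself compared between the groups. For Ptn the PTE+ mice (0.08 to 0.52) and PTE- mice (-0.91 to 0.07) did not overlap, although the nearest of them, PTE+ mouse a8_10 at 0.0786 and PTE- mouse a9_12 at 0.0663, were almost level. The mean difference was 0.26 ± 0.19 (SD, n = 4) in PTE+ and -0.38 ± 0.36 (n = 8) in PTE-, 0.64 apart, with an exact permutation p of 0.0101 over the mice. The edgeR interaction was 0.66 ± 0.34 (SE; p = 0.0611), and a replicate block by mouse gave 0.64 (p = 0.0412). For Mdk the means were 0.25 ± 0.37 (SD, n = 4) and -0.29 ± 0.28 (n = 8), 0.54 apart, with an exact permutation p of 0.0263 and an edgeR p of 0.327. On the log2(TPM + 1) scale the exact permutation p were 0.0404 for Ptn and 0.0283 for Mdk. By the exact test 2 of 10 genes were thus under 0.05, against 2.46% of all genes, and 1 of 10 had groups that did not overlap, against 0.221%. By edgeR 0 of 10 were under 0.05 in this comparison, against 2.94%. These values rest on the same contralateral libraries as the comparison of contralateral PTE+ with PTE- above and are no separate evidence of it. Both differences kept their sign with RLE factors (0.57 for Ptn and 0.38 for Mdk) and on the log2(TPM + 1) scale (0.57 and 0.51).

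Against sham mice, the difference between the hemispheres gave 1 gene with an edgeR p under 0.05 in PTE- (3.13% of all genes) and 1 in PTE+ (2.66%), in each case Acan, and Acan was also the 1 of 10 in ipsilateral against contralateral sham libraries (2.05%). The sham comparison rests on counts of 40 and 5 in 2 contralateral libraries against 0 in all 5 ipsilateral ones, at least 4.36-fold by the limit of 3 counts, with an edgeR p of 0.0212 and an exact permutation p of 0.5. The edgeR p of the Acan interactions were 0.0108 in PTE- and 0.0194 in PTE+ against sham, and the exact permutation p were 0.256 and 0.19. Under a replicate block by mouse the 3 edgeR p became 0.2, 0.413 and 0.255. Acan entered these tests only through libraries outside the ipsilateral sham group, so its edgeR p are descriptive. Ptn differed from sham by 0.52 ± 0.37 (SE) in PTE+ and by -0.13 ± 0.32 in PTE- mice, with edgeR p of 0.168 and 0.674.

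**Figure D5:**
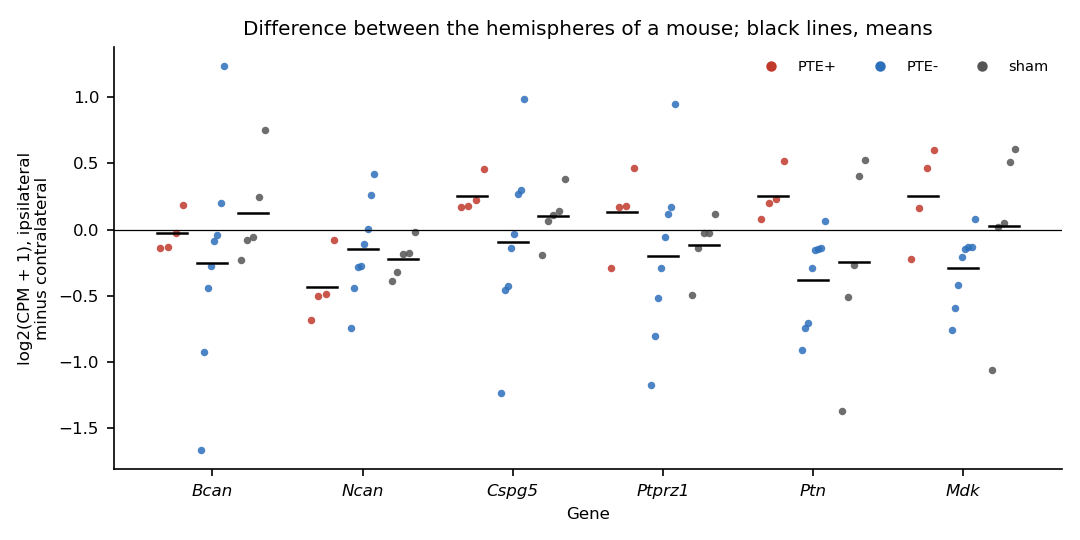
Difference of log2(CPM + 1), ipsilateral minus contralateral, in each of the 17 mice for the 6 genes measured in every library; black lines are group means. For Ncan 14 of 17 mice lie below 0, and for Ptn the 4 PTE+ mice lie above the 8 PTE- mice while the sham mice spread over both.

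Other genes of the pathway were examined in 5 lists of 86 genes in all, covering link proteins and hyaluronan enzymes, chondroitin sulfate synthesis, matrix proteases and their inhibitors, receptors and partners, and other proteoglycans and tenascins. In contralateral PTE+ against PTE-, 2 of 75 tested were higher and 1 lower at an unadjusted edgeR p under 0.05 (4%, against 2.21% of all genes). In PTE- against sham 2 of 75 were lower (2.67%, against 1.54% of all genes), and in PTE+ against sham 1 of 75 (1.33%, against 1.23%). On the ipsilateral side 1 of 78 was lower in PTE+ against PTE- (1.28%, against 1.75% of all genes), and 2 of 78 were higher in PTE- against sham (2.56%, against 1.58%). In ipsilateral PTE+ against sham 1 of 78 was higher and 2 were lower (3.85%, against 1.66%). None passed after adjustment, and none of the 21 genes of chondroitin sulfate synthesis that were tested was under 0.05 in any of these 6 comparisons.

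Sdc2, a heparan sulfate proteoglycan of the cell surface, had its lowest mean of the 3 contralateral groups in PTE+. Its CPM was 153 to 218 in the 5 PTE+ libraries, 183 to 325 in the 10 PTE- and 193 to 332 in the 5 sham libraries. The log2 fold change was -0.46 ± 0.18 (SE) against PTE- (edgeR p = 0.0152, exact permutation p = 0.00433) and -0.59 ± 0.20 against sham (edgeR p = 0.00751, exact permutation p = 0.0238). The summed astrocyte markers were 20833 to 25900 CPM in contralateral PTE+, 21931 to 36180 in PTE- and 22552 to 37044 in sham libraries. Their part in the Sdc2 values was not tested. Cntn1, a neuronal and glial adhesion molecule that binds Ptprz1, had a mean of 68.1 ± 35.9 CPM (SD, n = 10) in contralateral PTE- and 136 ± 84.7 (n = 5) in sham (edgeR p = 0.0318, exact permutation p = 0.0613). The summed neuronal markers were 148 to 520 CPM in contralateral PTE- and 177 to 962 in sham libraries, and their part in it was not tested.

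Of the proteases that cut lecticans, Adamts5 had more than 3 counts in 4 of 5 contralateral PTE+, 0 of 10 PTE- and 2 of 5 sham libraries. Its PTE+ mean of 1.16 CPM was at least 15.2-fold, and its sham mean of 1.13 CPM at least 14.8-fold, above the limit in PTE- (edgeR p = 0.00146 and 0.00151, exact permutation p = 0.000999 and 0.0952). Without its highest library (mouse a9_19) the PTE+ mean was 0.878 CPM, at least 11.5-fold above the limit, and without sham mouse a8_16, at 4.94 CPM, the sham mean was 0.179 CPM, at least 2.35-fold above it. Adamts8, of the same family, had a mean of 6.09 CPM in contralateral PTE+, from 2 of 5 libraries, and 0.224 in PTE- (edgeR p = 0.0466, exact permutation p = 0.0553). Without PTE+ mouse a8_10, at 21.8 CPM, the Adamts8 mean was 2.16 CPM. Both were at a low level even where seen. No contralateral PTE- library passed 3 counts, so Adamts5 entered the test only through the other groups. It was named here by its edgeR p, so its edgeR and exact permutation p are both descriptive.

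Ipsilaterally, the metalloproteinase inhibitor Timp4 had 285 ± 84.99 CPM (SD, n = 4) in PTE+ and 499 ± 205 (n = 5) in sham (edgeR p = 0.0338, exact permutation p = 0.0635). The summed astrocyte markers were 20384 to 28071 CPM (median 22098) in ipsilateral PTE+ and 20096 to 37264 (median 35663) in sham libraries, and their part in the Timp4 values was not tested. Timp1, an inhibitor known from reactive glia, passed 3 counts in 3 of 8 PTE- and 0 of 5 sham libraries, at least 72.5-fold by the limit (edgeR p = 0.0144, exact permutation p = 0.324). Without PTE- mouse a9_13, at 28.6 CPM, the Timp1 mean fell from 4.55 to 1.12 CPM and the bound to 17.9-fold. Dcn, the small proteoglycan decorin, was 73.3 to 434 CPM in PTE- and 7.59 to 96.4 in sham libraries (edgeR p = 0.0249, exact permutation p = 0.021). The summed markers of fibroblasts and mural cells, cells that make decorin, were 97.5 to 1110 CPM in ipsilateral PTE- and 192 to 680 in sham libraries, and their part in it was not tested. L1cam, a neuronal adhesion molecule, was 8.66 to 72.9 CPM in PTE+ and 0.0725 to 7.55 in sham libraries (edgeR p = 0.0309, exact permutation p = 0.0159), beside summed neuronal markers of 272 to 906 CPM in PTE+ and 101 to 716 in sham libraries, whose part in it was not tested. Hapln2, a link protein of oligodendrocytes and nodes, was at 0 in all 4 PTE+ libraries and passed 3 counts in 2 of 8 PTE- and 3 of 5 sham libraries, at least 8.92-fold and 44.8-fold lower by the limit (edgeR p = 0.0379 and 0.0195, exact permutation p = 0.515 and 0.167). Without the highest library of each group (PTE- mouse a8_9 at 2.71 CPM and sham mouse a8_16 at 10.2 CPM) the bounds were 3.31-fold and 10.7-fold. The summed markers of mature oligodendrocytes were 618 to 1207 CPM (median 698) in ipsilateral PTE+, 567 to 1786 (median 773) in PTE- and 497 to 2609 (median 1446) in sham libraries, and their part in the Hapln2 values was not tested. Timp1 and Hapln2 entered the test only through libraries outside the group at 0, so their edgeR and exact permutation p are descriptive.

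Whether members moved together from library to library was examined in 10 relations, 5 in each hemisphere, on deviations from the group means. None passed after adjustment by the method of Benjamini and Hochberg, the lowest adjusted permutation p being 0.0647. That was Ptprz1 with Mdk in the 17 ipsilateral libraries, at Pearson's r = -0.68 (permutation p = 0.00647) and Spearman's rho = -0.28 (permutation p = 0.273), and it became -0.30 without the libraries of mice a8_11 and a9_9. In the 20 contralateral libraries the same relation had r = -0.43 (permutation p = 0.0598) and rho = -0.47 (permutation p = 0.0366, adjusted 0.326), and r = -0.31 within a8 and -0.53 within a9 mice. Ptprz1 with Ptn had r = -0.42 and rho = -0.37 contralaterally and r = -0.26 and rho = -0.18 ipsilaterally (permutation p = 0.0643, 0.106, 0.318 and 0.486), and r was 0.11 in both hemispheres on the log2(TPM + 1) scale. Ncan with Bcan had r = 0.05 and 0.49 (permutation p = 0.813 and 0.0514) and rho = 0.15 and 0.19 (permutation p = 0.512 and 0.470), the second r becoming -0.07 without mice a8_11 and a9_15. Vcan with the summed markers of oligodendrocyte precursors had r = 0.28 and 0.02, and Tnr 0.02 and 0.34, with permutation p of 0.227, 0.932, 0.923 and 0.18 and rho of 0.42, 0.07, -0.04 and 0.38 (permutation p = 0.0651, 0.791, 0.864 and 0.14).

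As a description over the same 37 libraries, which share their depth and the number of genes detected, the genes whose deviations were most like those of a member by Spearman's rho among 15811 genes were also listed. For Bcan these included Fgfr3 (0.81) and Ncam1 (0.81). For Ptprz1 they were Dag1 (0.77), Tom1l2 (0.73) and Tjp1 (0.72), and for Cspg5 Acsl6 (0.73), Cyp2d22 (0.73) and Zfp120 (0.71). For Ptn they were Siglec1 (0.80), Il18 (0.80) and Chrna1 (0.78), with median CPM of 0.872, 115 and 0.771, and for Mdk Fxyd1 (0.81), Hist1h2bl (0.79) and Rnaset2b (0.76). Ncan was most like Gfpt1 (0.65), Tnc like Parl (0.69), Vcan like Ripk4 (0.74) and Tnr like Zfp966 (0.75). Among the members, the pairs with a rho of 0.4 or more in size were Ptprz1 with Bcan (0.53), Vcan (0.46), Ncan (0.45) and Mdk (-0.43), Mdk with Ptn (0.49), Vcan (-0.46), Bcan (-0.43) and Ncan (-0.40), and Ptn with Ncan (-0.43) and Tnr (-0.40).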

How the data were processed

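Reads were trimmed by the authors with Trim Galore 0.6.4 and quantified with RSEM 1.2.28 and Bowtie2 2.4.1 on mm10 (libraries from the SMART-Seq V4 kit). The deposited expected counts are estimated counts without normalization, given as whole numbers and thus apparently rounded. TPM of the same quantification were deposited too. The annotation release is not given in the sources used here; positions are those of GENCODE for GRCm38, the assembly of mm10, and 21856 of 21975 gene IDs matched a symbol.

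Counts were tested with edgeR 4.0.16 in R 4.3.3 (filterByExpr, TMM, quasi-likelihood F test), with the 3 groups of a hemisphere in a fit and, for the hemispheres, the 34 libraries of 17 mice in 6 groups. Adjustment (Benjamini-Hochberg) was over every gene in a fit. The SE was the log2 fold change divided by the root of F, and a 95% interval is 1.96 SE on each side. An exact two-sided permutation test was run on log2(CPM + 1), with TMM factors over all 37 libraries, in 120 tests of 10 genes in 12 comparisons, of which 6 were under 0.05. Background shares for the exact test are over the 15812 genes kept in all libraries. Relations used 100000 permutations. Libraries with at most 3 counts were taken to be at the counting limit. Replicates are separate mice by their labels; 0 of 109 pairs within a group were identical (Spearman's rho 0.59 to 0.95). The same mouse gave both hemispheres by the labels, so a replicate block by mouse pairs them; deviations from the group means correlated at a median of 0.08 within a mouse and -0.02 between mice. The edgeR steps were run on data simulated with 4-fold changes at a biological coefficient of variation of 0.4. In the real fits the common value was 1.32 to 1.4, so the simulation does not give their power.

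The members and lists were chosen with earlier results of these data known. All members are given by their levels; a test is given in full for those with an unadjusted edgeR or exact p under 0.05, and for Ptn in PTE+ against PTE- because the study names it. Genes of the pathway lists are named where the edgeR p was under 0.05 within a hemisphere. Alternatives were DESeq2 1.42.0 (the authors used DESeq2 1.36.0), limma 3.58.1 with voom weights or on log2(TPM + 1), RLE factors, no filter, the 2 compared groups alone, the name prefix or the mouse as a term, and each library left out. A gene among those most like a member is not reported here.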

Additional observations from a re-analysis of the deposited data

Results flagged for a closer look

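Of 59 sets of a gene and a group of 4 to 10 libraries, 14 held a library far from the others by Dixon's criterion, which chance meets in about 1 in 20 sets of normally distributed values. PTE- mouse a8_11, whose ipsilateral library had the fewest detected genes, accounted for 6 of them: its ipsilateral CPM was 816 for Bcan, 84.99 for Ncan and 246 for Ptprz1, all low, and 250.2 for Mdk, and its contralateral CPM was 237 for Mdk and 0.217 for Acan, all high. Contralateral PTE+ mouse a8_17 was low for Ncan (77.6 CPM) and Tnr (0.0510). Low values also stood apart for Vcan in contralateral sham mouse a8_16 (0.0213), Cspg5 in ipsilateral sham mouse a9_10 (1663), Tnr in ipsilateral sham mouse a9_9 (0.0363) and Tnc in ipsilateral PTE- mouse a8_14 (0). High values stood apart for Acan in contralateral sham mouse a8_15 (1.24) and ipsilateral PTE- mouse a9_12 (1.19). In the Acan sets of contralateral and ipsilateral PTE- every other library was at 0, so any counts gave a flag. The flags of Vcan, Tnc and Tnr also fell at or near 0. The 14 of 59 can therefore not be set against the rate for normal values.

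The difference between the hemispheres, as a mean of log2(CPM + 1), differed between groups by a test in 4 cases. PTE+ mice were above PTE- mice by 0.64 for Ptn and 0.54 for Mdk (exact permutation p = 0.0101 and 0.0263). For Acan, PTE- mice were above sham mice by 0.37 and PTE+ mice by 0.98, where the edgeR interaction passed and the exact permutation test did not (p = 0.256 and 0.19).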

How the results depend on the processing

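The number of members with p under 0.05 was the same with RLE factors in all 12 comparisons and with the name prefix as a covariate in all 6 within a hemisphere. In contralateral PTE+ against PTE- (1 in the report) it was 0 with the count of detected genes in the model. It was 2 in the 2 compared groups alone (Ptn and Mdk) and 2 with voom. Ptn was not among those by voom (limma p = 0.235), so a member other than Ptn stood beside Mdk (limma p = 0.0181). The number became 1, from 0, with log2(TPM + 1) in ipsilateral PTE+ against PTE- and against sham, without a filter in ipsilateral PTE- and PTE+ against sham, and with DESeq2 in ipsilateral PTE- against sham. Between the hemispheres, the replicate block by mouse gave 0 in sham, 1 in PTE-, 0 in both side differences against sham and 1 in that of PTE+ against PTE-. DESeq2 gave 0 in sham, 1 in PTE- and 0 in both side differences against sham, and voom gave 1 in PTE-, 1 in PTE+ and 0 in both side differences against sham. The cause of these changes was not tested. With libraries left out in turn the counts ran from 0 to 2 in contralateral PTE+ against PTE-, contralateral PTE+ against sham and PTE- hemispheres, from 0 to 1 in ipsilateral PTE- and PTE+ against sham, sham hemispheres and the 3 side differences, and stayed at 0 in the others. The Mdk log2 fold change in contralateral PTE+ against PTE- ran from -0.71 to -0.47, with edgeR p under 0.05 in 11 of 15. The sham and side-difference calls of Acan were lost without sham mouse a8_15, and those of the PTE- and PTE+ side differences also without mice a9_12 and a9_18, respectively. Ptprz1 with Ptn turned to r = 0.11 in both hemispheres on log2(TPM + 1), and ipsilateral Vcan with precursor markers to -0.039 on log2(CPM + 0.1). The covariate of detected genes, the exact test on log2(TPM + 1) and the bounds without the highest library were chosen after seeing the data. Acan, Tnc, Tnr and Vcan had libraries at or under 3 counts; the part of depth in this was not tested.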
